A study of Mus musculus with 48 samples.

Results

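The genes described here encode 10 receptors for serotonin (5-hydroxytryptamine, 5-HT): Htr1a, Htr1b, Htr1d, Htr1f, Htr2a, Htr2c, Htr3a, Htr4, Htr5a and Htr7. They were taken by symbol from a table of raw counts for 56748 genes in mouse brain, and all 10 passed the filter on low counts in each of the 4 regions studied. Polyadenylated RNA came from dissected cerebellum, medial prefrontal cortex and the dorsal and ventral parts of the hippocampus of mice aged 16 weeks. The tested mice were females and males of the line 129/Sv-Cyp2e1tm1Gonz/J, which carries a targeted allele of Cyp2e1 (an ethanol-oxidising cytochrome P450) and is labelled KO. The other mice were females and males of 129S1/SvImJ, labelled WT. Each combination of region, sex and label has 3 libraries, 48 in all, called biological replicates by the submitters; the labels do not say whether regions came from the same animals. The Cyp2e1 allele and any other difference between these 129 lines cannot be told apart. Cyp2e1 counts went against the labels: 34 to 111 reads per library labelled KO and 0 to 8 per library labelled WT (log2 change of 4.35 ± 0.31 to 5.38 ± 0.43 (SE) over the regions, edgeR quasi-likelihood test, adjusted p between 1.29e-06 and 0.00012). KO and WT are therefore used below only as the libraries' labels, and so is every direction drawn from them.

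Serotonin is made by neurons of the brainstem raphe nuclei, whose axons reach all of the regions sampled, and its action depends on which receptors the target cells carry. The 5-HT1 receptors and 5-HT5A couple to inhibitory G proteins that lower cyclic AMP, the 5-HT2 receptors couple to Gq and phospholipase C, and 5-HT4 and 5-HT7 couple to the stimulatory G protein. 5-HT3A differs from all of these: it forms a ligand-gated cation channel. 5-HT1A is known as an autoreceptor on raphe neurons and, in the forebrain, as an inhibitory receptor on hippocampal and cortical pyramidal cells; 5-HT2A is known from cortical pyramidal cells, and 5-HT3A marks a class of cortical and hippocampal interneurons.

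Promoter windows show how unlike these genes are at their start sites. RefSeq windows on GRCm38.p6, running from 250 bases before to 50 after a start site, were at hand for 8 of the 10 genes (9 windows, 2 of them for Htr1d). Htr3a and Htr4 are named only. Printed 5′ to 3′ are the windows of 6 genes on which the results below turn, with each CG dinucleotide in capitals:
Htr1a, chr13:105443443-105443742, plus strand: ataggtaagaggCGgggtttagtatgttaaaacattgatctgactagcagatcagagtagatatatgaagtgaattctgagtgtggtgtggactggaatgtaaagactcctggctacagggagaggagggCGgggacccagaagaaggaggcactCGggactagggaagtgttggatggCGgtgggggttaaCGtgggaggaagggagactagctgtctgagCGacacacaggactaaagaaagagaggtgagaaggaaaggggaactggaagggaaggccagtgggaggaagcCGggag
Htr1b, chr9:81633783-81634082, minus strand: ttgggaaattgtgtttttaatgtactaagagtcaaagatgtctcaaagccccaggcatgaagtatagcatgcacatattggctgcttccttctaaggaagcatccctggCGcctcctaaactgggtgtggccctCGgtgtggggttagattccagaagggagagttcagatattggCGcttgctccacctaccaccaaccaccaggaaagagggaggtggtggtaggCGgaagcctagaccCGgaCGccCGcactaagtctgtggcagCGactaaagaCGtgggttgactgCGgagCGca
Htr5a, chr5:27841697-27841996, plus strand: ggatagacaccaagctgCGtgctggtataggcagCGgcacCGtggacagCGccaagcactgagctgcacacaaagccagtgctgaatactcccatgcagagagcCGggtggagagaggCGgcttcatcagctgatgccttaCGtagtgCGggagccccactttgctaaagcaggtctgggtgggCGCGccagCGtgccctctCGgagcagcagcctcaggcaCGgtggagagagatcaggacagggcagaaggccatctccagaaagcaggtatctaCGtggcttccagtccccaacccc
Htr2a, chr14:74640624-74640923, plus strand: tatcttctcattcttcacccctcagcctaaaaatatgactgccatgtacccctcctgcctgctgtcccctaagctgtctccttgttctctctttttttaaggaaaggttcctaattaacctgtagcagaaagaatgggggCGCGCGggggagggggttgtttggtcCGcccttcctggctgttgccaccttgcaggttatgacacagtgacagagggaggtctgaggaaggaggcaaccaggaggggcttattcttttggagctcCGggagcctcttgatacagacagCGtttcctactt
Htr2c, chrX:146962263-146962562, plus strand: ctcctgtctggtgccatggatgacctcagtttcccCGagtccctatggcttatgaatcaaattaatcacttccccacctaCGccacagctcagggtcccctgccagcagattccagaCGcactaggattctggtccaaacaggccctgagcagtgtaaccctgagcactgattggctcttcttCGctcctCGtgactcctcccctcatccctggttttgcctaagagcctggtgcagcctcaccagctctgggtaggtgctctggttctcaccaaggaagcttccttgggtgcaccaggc
Htr7, chr19:36057311-36057610, minus strand: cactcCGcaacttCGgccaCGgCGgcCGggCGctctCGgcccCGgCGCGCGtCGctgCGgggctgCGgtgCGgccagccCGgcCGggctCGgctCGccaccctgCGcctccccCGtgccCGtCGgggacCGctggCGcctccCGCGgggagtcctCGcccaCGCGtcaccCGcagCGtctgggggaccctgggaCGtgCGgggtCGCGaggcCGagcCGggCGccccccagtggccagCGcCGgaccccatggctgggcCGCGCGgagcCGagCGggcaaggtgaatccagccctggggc

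The Htr7 window was 81% G or C and held 46 CG dinucleotides, a G and C content above that of 99.3% of the 32851 mouse windows. Htr2c held 5 CG dinucleotides, Htr2a 6 and Htr1a 7, against a median of 7 over all windows. Htr1b held 11 and Htr5a 14. The letters TATAAA (or TTTATA, the same on the other strand) occurred in none of the 9 windows and in 13.6% of all windows. GGGCGG or CCGCCC, a GC box that itself holds a CG, occurred in windows of Htr1a, Htr1d, Htr1f and Htr2a and in 35.7% of all windows. TGACG or CGTCA, the half-site of a cyclic AMP response element, occurred in the Htr7 window alone of the 9 and in 20.8% of all, and CACGTG in none of the 9 and in 7.15% of all. Such matches are descriptions of letters only.

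Library totals ran from 14559295 to 25863414 counts. Several libraries held RNA typical of neighbouring tissue, and this was looked at before any comparison. In cerebellum, the granule cell gene Gabra6 spanned 1436 to 14244 counts in KO libraries and 108 to 6457 in WT libraries. Tph2, the enzyme of serotonin synthesis in raphe neurons, spanned 12 to 4906 counts in KO cerebellum and 378 to 5088 in WT cerebellum. The serotonin transporter gene Slc6a4 spanned 0 to 3541 and 235 to 3920 counts in the same groups. These brainstem transcripts were near 0 in the forebrain (at most 24 counts of Tph2 and 9 of Slc6a4) except in ventral hippocampus male KO 1, which had 1182 and 799. Gabra6, by contrast, reached 3696 counts in dorsal hippocampus male KO 1, 5904 in ventral hippocampus male KO 3, and 4762 and 2815 in ventral hippocampus male WT 1 and 2. Markers of striatal projection neurons stood high in prefrontal female KO 2 and 3. By fixed limits on these marker means, 10 libraries (5 KO and 5 WT) stood apart, among them cerebellar female WT 1, male WT 2 and male WT 3 for low granule markers. Fits without these 10 were made for KO against WT, for pairs of regions and for the variation between regions. They are given below where named. The comparisons by sex were not fitted without them. Leaving out the 10 keeps only 1 library each in cerebellar male WT, prefrontal female KO, ventral hippocampal male KO and ventral hippocampal male WT. A call lost in such a fit therefore cannot be told apart from the loss of libraries. The extraction text speaks of liver, but the 8 liver markers summed to at most 1.14 CPM (counts scaled to a common library size) in cerebellum and 1.02 CPM elsewhere.

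The order of the receptors differed between regions once levels were set per kilobase of the deposited gene length. In medial prefrontal cortex Htr2a led with 8.49 ± 0.99 CPM per kb (SD, n = 12), ahead of Htr1a with 6.59 ± 0.71, Htr5a with 4.92 ± 0.37 and Htr7 with 3.82 ± 0.48 CPM per kb. Neighbours in this stretch of the order were separated by more than their SDs. Next came Htr1b (2.87 ± 0.91 CPM per kb), whose spread overlapped that of Htr7. Htr3a, Htr2c and Htr1f (2.27, 2.20 and 1.52 CPM per kb) each lay within the spread of the one before, and Htr4 (0.361 ± 0.189) lay below them. In ventral hippocampus Htr1a led alone with 8.65 ± 1.72 CPM per kb. It was followed by Htr7 (4.57 ± 0.92), Htr2c (3.89 ± 1.81), Htr5a (3.71 ± 0.56) and Htr2a (3.37 ± 0.98), among which neighbours did not differ beyond their spread. Dorsal hippocampus had Htr1a (7.85 ± 0.89) and Htr2c (7.09 ± 2.16 CPM per kb) at its head, within each other's spread. In cerebellum Htr2c stood first with 12.5 ± 7.22 CPM per kb, but the libraries varied so much that its spread overlapped that of Htr1a (5.33 ± 3.25). In male KO 1 and 3, the libraries with most Gabra6 (11405 and 14244 counts), Htr1b (3.07 and 3.57 CPM per kb) exceeded Htr2c (1.55 and 1.82). Htr2c exceeded Htr1b in every other cerebellar library. The part of neighbouring tissue in this order was not tested. Htr1d was the lowest of the 10 in the 3 forebrain regions, at 0.151 to 0.218 CPM per kb, and Htr3a was the lowest in cerebellum at 0.176 ± 0.175 CPM per kb.

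**Figure D1:**
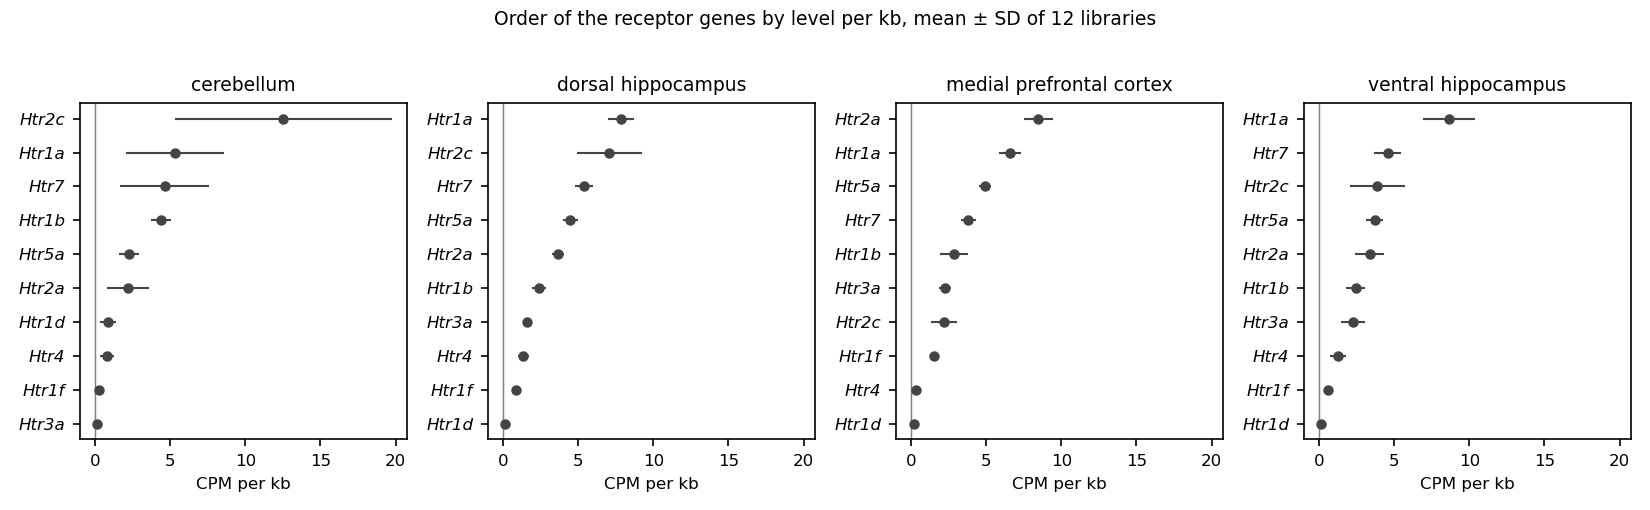
Level of each receptor gene in each region as CPM per kb of deposited gene length, points showing the mean and bars the SD of 12 libraries (6 labelled KO, 6 labelled WT), genes ordered from the highest (top) to the lowest. Htr2a heads the prefrontal panel at 8.49, Htr1a both hippocampal panels, and Htr2c the cerebellar panel at 12.5 with the widest bar.

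Among the receptors coupled to inhibitory G proteins, Htr1a was high in all forebrain regions. It had a lowest, median and highest value of 19.6, 40.6 and 46.1 CPM in ventral hippocampus, 30.0, 34.6 and 42.2 in dorsal hippocampus, and 23.6, 29.3 and 35.5 in medial prefrontal cortex. Cerebellar libraries ran from 2.24 to 45.8 CPM with a median of 29.1, so that the regions overlapped. In the fit over all 48 libraries Htr1a was lower in cerebellum than in dorsal hippocampus by a log2 change of -0.80 ± 0.20 (SE; adjusted p = 0.000811, edgeR quasi-likelihood test with Benjamini-Hochberg adjustment over 19183 genes). This call was lost in WT libraries alone (log2 change -0.18, adjusted p = 0.508), and against prefrontal cortex the sign turned there (0.09, adjusted p = 0.737, against -0.55 over both labels, adjusted p = 0.0155).

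Htr1b, whose product sits on axon terminals and limits transmitter release, was higher in cerebellum (14.5, 21.8 and 24.4 CPM as lowest, median and highest) than in each forebrain region. The forebrain medians were 12.7 CPM in medial prefrontal cortex, 11.2 in dorsal and 10.9 in ventral hippocampus. The log2 differences from dorsal hippocampus, prefrontal cortex and ventral hippocampus were 0.87 ± 0.11, 0.64 ± 0.11 and 0.86 ± 0.11 (edgeR, adjusted p = 1.54e-08, 2.79e-06 and 1.75e-08). Htr1d, a related terminal receptor, was also highest in cerebellum, at a far lower level. It had a median of 3.06 CPM in cerebellum, against 0.495, 0.648 and 0.385 CPM in dorsal hippocampus, prefrontal cortex and ventral hippocampus (log2 differences of 2.32, 1.93 and 2.65). In KO libraries alone the difference from prefrontal cortex was 0.95 and not called (adjusted p = 0.0605). Male KO cerebellar libraries held 0.639, 1.00 and 0.654 CPM and female KO 1 held 1.88, within the prefrontal range of 0.0679 to 1.95. The other cerebellar libraries held 2.00 to 5.77 CPM of Htr1d. Htr1b overlaps an antisense gene, D430036J16Rik, with 2583 counts in all against 11809 for Htr1b; whether counting used the strand is not given in the sources used here.

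Htr1f and Htr5a went the other way. Htr1f, a 5-HT1 receptor known as a target of some migraine drugs, had a mean of 3.93 ± 0.69 CPM in prefrontal cortex, 2.21 ± 0.55 in dorsal hippocampus, 1.60 ± 0.65 in ventral hippocampus and 0.696 ± 0.460 in cerebellum (SD, n = 12 each). The prefrontal values of 2.59 to 4.86 CPM lay above all cerebellar ones, of 0 to 1.64 CPM. Htr5a averaged 26.5 ± 2.01 CPM in prefrontal cortex, 24.2 ± 2.70 in dorsal hippocampus, 19.9 ± 2.99 in ventral hippocampus and 12.2 ± 3.44 in cerebellum. Within prefrontal cortex its coefficient of variation, 7.59%, was the smallest of the 10 members. Its cerebellar values (6.96 to 17.1 CPM) lay wholly under the prefrontal and dorsal hippocampal ones (23.2 to 29.4 and 20.2 to 29.6 CPM).

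Of the Gq-coupled pair, Htr2a marked the prefrontal cortex. Its prefrontal libraries held 37.8, 47.1 and 55.9 CPM as lowest, median and highest. Those of dorsal hippocampus held 16.8, 21.1 and 23.3 CPM, those of ventral hippocampus 9.38, 19.0 and 28.6, and those of cerebellum 2.11, 12.9 and 29.2. No prefrontal library overlapped any other region. The log2 differences were -1.20 ± 0.15 for dorsal hippocampus against prefrontal cortex (adjusted p = 1.05e-07), 1.33 ± 0.15 for prefrontal cortex against ventral hippocampus (adjusted p = 9.83e-09) and -2.17 ± 0.16 for cerebellum against prefrontal cortex (adjusted p = 1.36e-14, edgeR).

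Htr2c, the receptor of choroid plexus epithelium and of many subcortical neurons, ran against Htr2a. It was lowest in prefrontal cortex (12.7, 19.0 and 42.1 CPM as lowest, median and highest). It stood at 21.4, 33.3 and 85.4 CPM in ventral hippocampus, 27.4, 70.1 and 93.6 in dorsal hippocampus, and 14.4, 139 and 206 in cerebellum. Dorsal hippocampus exceeded ventral hippocampus by a log2 difference of 0.86 ± 0.22 (adjusted p = 0.00639) and prefrontal cortex by 1.70 ± 0.23 (adjusted p = 4.41e-07, edgeR). Cerebellum against dorsal hippocampus gave 0.62 ± 0.22 (adjusted p = 0.017), a call that turned to -0.11 in KO libraries alone (adjusted p = 0.834) and was lost without the 10 libraries apart (0.20, adjusted p = 0.409). The choroid plexus transcript Ttr was high in libraries at both ends of the Htr2c range. In dorsal hippocampus female KO 2 had 6239 counts of Ttr and the region's highest Htr2c (93.6 CPM), and female KO 3 and female WT 3 had 14619 and 9358 counts of Ttr with 76.1 and 68.0 CPM of Htr2c. Ventral hippocampus male KO 3 had 9327 counts of Ttr and the region's lowest Htr2c, and cerebellar male WT 1 had 21084 counts of Ttr with 66.0 CPM of Htr2c, the lowest of its label there.

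Htr3a, the channel subunit, was a forebrain gene in these data. It averaged 4.72 ± 0.82 CPM in prefrontal cortex, 4.71 ± 1.64 in ventral hippocampus and 3.34 ± 0.62 in dorsal hippocampus, against 0.367 ± 0.364 in cerebellum (SD, n = 12 each). All forebrain libraries (1.87 CPM or more) lay above the cerebellar maximum of 1.17 CPM. The cerebellum against prefrontal cortex difference of -3.96 ± 0.27 was the largest log2 difference of any member over the 6 pairs (edgeR, adjusted p = 1.7e-15).

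The genes for receptors coupled to the stimulatory G protein differed in their order of regions. Htr4 had medians of 7.17 CPM in dorsal and 7.31 in ventral hippocampus, 4.06 in cerebellum and 1.72 in prefrontal cortex. Its dorsal hippocampus against prefrontal cortex difference was 2.00 ± 0.27 (log2, adjusted p = 2.8e-07), and prefrontal cortex against ventral hippocampus gave -1.91 ± 0.27 (adjusted p = 4.84e-07, edgeR). Htr7 averaged 18.3 ± 2.10 CPM in dorsal hippocampus, 15.5 ± 3.14 in ventral hippocampus, 13.0 ± 1.64 in prefrontal cortex and 15.8 ± 10.0 in cerebellum. It was the member not called between cerebellum and prefrontal cortex (log2 difference -0.02 ± 0.16, adjusted p = 0.909) or ventral hippocampus (-0.27 ± 0.16, adjusted p = 0.149). These near-zero averages joined opposite differences under the labels. Against prefrontal cortex, cerebellar Htr7 was lower in KO libraries (-0.78, adjusted p = 0.0234) and higher in WT libraries (0.74, adjusted p = 0.000331). Against ventral hippocampus the values were -1.19 (adjusted p = 0.00144) and 0.66 (adjusted p = 0.0013).

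Counted over pairs of regions, 10 of 10 members were called between cerebellum and dorsal hippocampus, where 55.7% of the 19183 genes tested were. Cerebellum against prefrontal cortex called 9 (65.5% of genes) and cerebellum against ventral hippocampus 9 (58.8%). Dorsal hippocampus against prefrontal cortex called 5 (29.3%): Htr2c, Htr4 and Htr7 were higher in dorsal hippocampus, and Htr1f and Htr2a lower. Prefrontal cortex against ventral hippocampus also called 5 (32.5%), with Htr1f, Htr2a and Htr5a higher and Htr2c and Htr4 lower in prefrontal cortex. Dorsal against ventral hippocampus called 2 (16.8%), Htr2c and Htr5a, both higher in dorsal hippocampus (log2 difference of Htr5a 0.28 ± 0.08, adjusted p = 0.012). Without the 10 libraries apart these counts were 9, 9, 10, 6, 5 and 3, in the order cerebellum against dorsal hippocampus, prefrontal cortex and ventral hippocampus, dorsal hippocampus against prefrontal cortex, prefrontal cortex against ventral hippocampus, and dorsal against ventral hippocampus. The dorsal against ventral calls were lost when all libraries numbered 2 (0 members) or 3 (0 members) were left out. Cerebellum against dorsal hippocampus held 6 members in WT libraries alone.

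**Figure D2:**
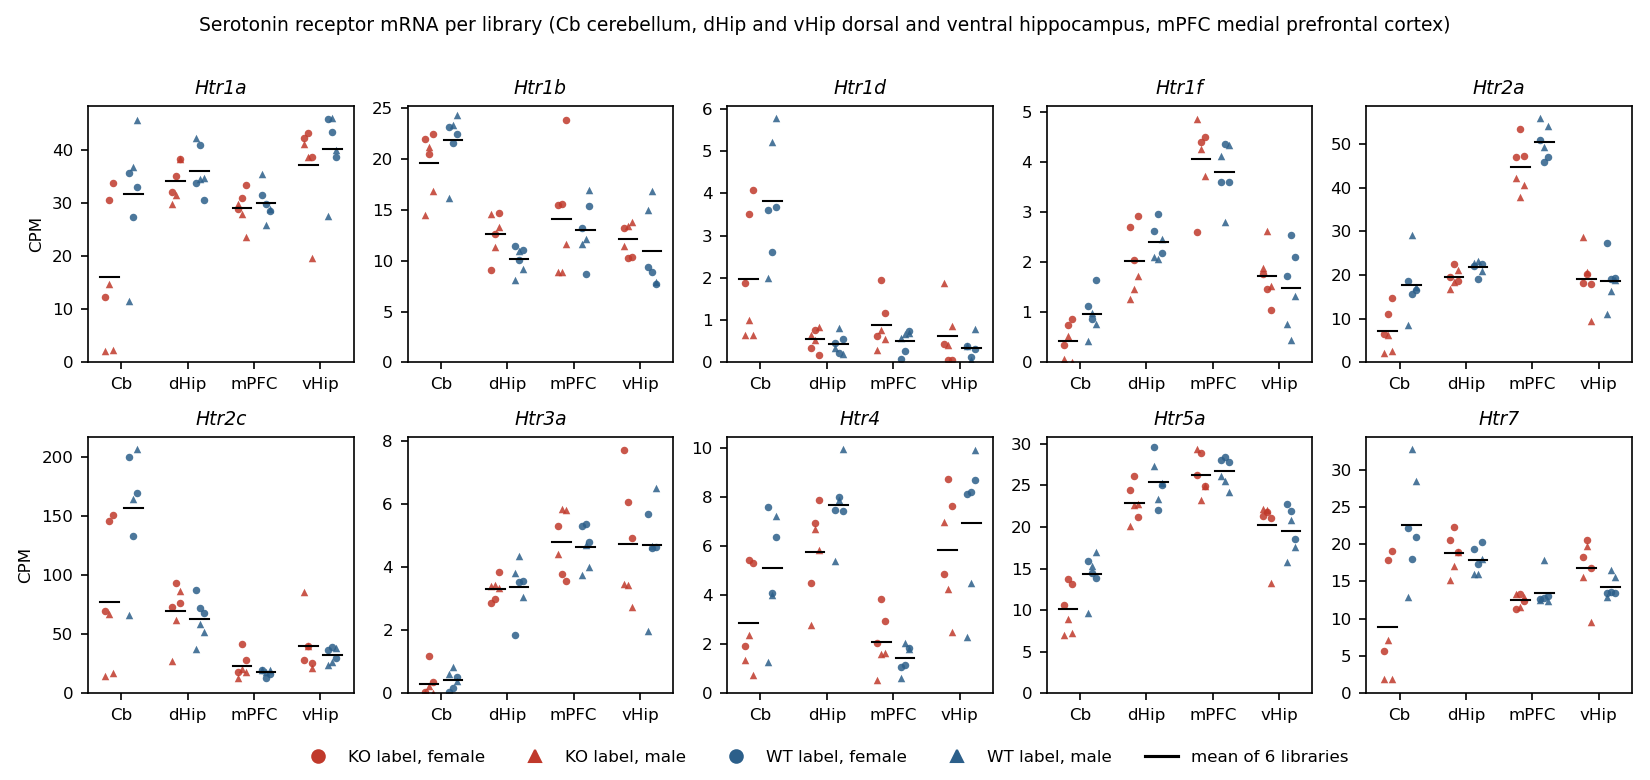
CPM of each receptor gene in every library (y axis from 0), by region (x axis), with KO libraries (red) left of WT libraries (blue), circles for females, triangles for males and a line at the mean of 6. Htr2a stands alone in prefrontal cortex at 37.8 to 55.9 CPM, while cerebellar KO libraries reach the lowest values of any region for Htr7 (1.91 CPM) and Htr2a (2.11 CPM).

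The first question put by the design was whether receptor mRNA differs between KO and WT mice within a region. In cerebellum 4 of 10 members, Htr7, Htr2a, Htr1d and Htr5a, were lower under the KO label, where 7.98% of the 17825 genes tested were called in either direction and 5.55% were called lower. All 10 members had a negative log2 change, with a median of -1.28 against 0.00 (-0.000498) over all genes tested, and 8 had an unadjusted p under 0.05, as did 6417 of the 17825 genes. As RNA came from whole tissue, fewer cells of a type and less RNA per cell cannot be told apart.

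Htr7, the receptor for which the change was largest, had 1.91, 6.45 and 19.1 CPM as lowest, median and highest of 6 KO libraries, against 12.9, 21.6 and 32.8 CPM in 6 WT libraries (log2 change -1.62 ± 0.39, SE; adjusted p = 0.0435, edgeR). Htr2a had 2.11, 6.38 and 14.7 CPM in KO libraries, against 8.47, 16.9 and 29.2 CPM in WT libraries (-1.48 ± 0.33, adjusted p = 0.0427, edgeR). In both genes male KO 1 and male KO 3 were by far the lowest, female KO 2 and female KO 3 lay within the WT range, and male WT 1 was the lowest of its label. Htr1d had 0.639, 1.44 and 4.07 CPM in KO libraries, against 2.00, 3.64 and 5.77 CPM in WT libraries (-1.27 ± 0.29, adjusted p = 0.0427, edgeR). Htr5a differed least of the called members, with 6.96, 9.79 and 13.7 CPM in KO libraries and 9.62, 14.9 and 17.1 CPM in WT libraries (-0.54 ± 0.14, adjusted p = 0.0471, edgeR). For every one of the 10 members the KO and WT ranges overlapped, as they did for all but 1.87% of genes.

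The uncalled members included some as far apart as the called ones. Htr2c averaged 77.4 ± 59.7 CPM in KO and 156 ± 51.7 CPM in WT cerebellum (SD, n = 6 each; log2 change -1.29 ± 0.41, adjusted p = 0.0645, edgeR). Htr1a averaged 16.0 ± 13.6 and 31.8 ± 11.5 CPM in KO and WT libraries (-1.30 ± 0.49, adjusted p = 0.0907). Male KO 1 and 3 held 14.4 and 16.9 CPM of Htr2c and 2.24 and 2.29 CPM of Htr1a, under every other cerebellar library. Htr1f (-1.37 ± 0.53, adjusted p = 0.0979), Htr4 (-0.99 ± 0.42, adjusted p = 0.12) and Htr3a (-0.87 ± 0.82, adjusted p = 0.459) were not called either, with 0 counts of Htr3a in male KO 1 and 3. Htr1b was nearly level, at 19.6 ± 3.19 CPM in KO and 21.8 ± 2.93 CPM in WT libraries (-0.16 ± 0.11, adjusted p = 0.309). Its KO values of 14.5 to 22.5 CPM lay inside the WT span of 16.2 to 24.4 CPM in all but male KO 1.

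Marker genes of other cells moved with these receptors in cerebellum. All 12 granule cell markers had a positive KO against WT log2 change (median 1.37; 0 called by edgeR, 2 with an unadjusted p under 0.05), with summed levels of 1203 to 8243 CPM in KO and 338 to 5596 CPM in WT libraries. All 10 Purkinje cell markers were likewise positive (median 1.48; 0 called, 4 with an unadjusted p under 0.05), with sums of 1824 to 9296 and 665 to 4835 CPM. All 6 raphe markers were negative (median -1.98; 0 called, 6 with an unadjusted p under 0.05), with sums of 14.8 to 536 CPM in KO and 94.1 to 913 CPM in WT libraries. Of 8 oligodendrocyte markers 5, and of 8 microglial markers 4, were called lower under the KO label. Male KO 1, which had 0 counts of Slc6a4 and 12 of Tph2, was the lowest library for Htr1a, Htr1b, Htr1d, Htr2a, Htr2c and Htr5a. Male KO 3 had 261 counts of Slc6a4 with 1.91 CPM of Htr7 and 16.9 CPM of Htr2c, and male KO 2 had 1 count with 7.20 CPM of Htr7 and 67.2 CPM of Htr2c. With the mean of the granule markers as covariate the log2 changes of Htr7, Htr2a, Htr1d and Htr5a became -0.92, -0.82, -0.51 and -0.22 and 0 members were called. With the raphe marker mean they became -0.91, -0.93, -0.62 and -0.28 (0 members called). Without the 3 cerebellar libraries apart they became -1.13, -0.89, -0.69 and -0.25. Those 3 libraries are all labelled WT, and leaving them out keeps male WT 1 as the only male WT library. The part of these other cells in the result was not tested further. The calls also hung on single libraries: 0 members were called without female KO 1 or 2, male KO 1 or 3, female WT 1, 2 or 3, or male WT 2 or 3, 2 without female KO 3, and 7 without male KO 2 or male WT 1. Of the 1422 genes called in cerebellum, 1405 had an adjusted p between 0.04 and 0.05.

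**Figure D3:**
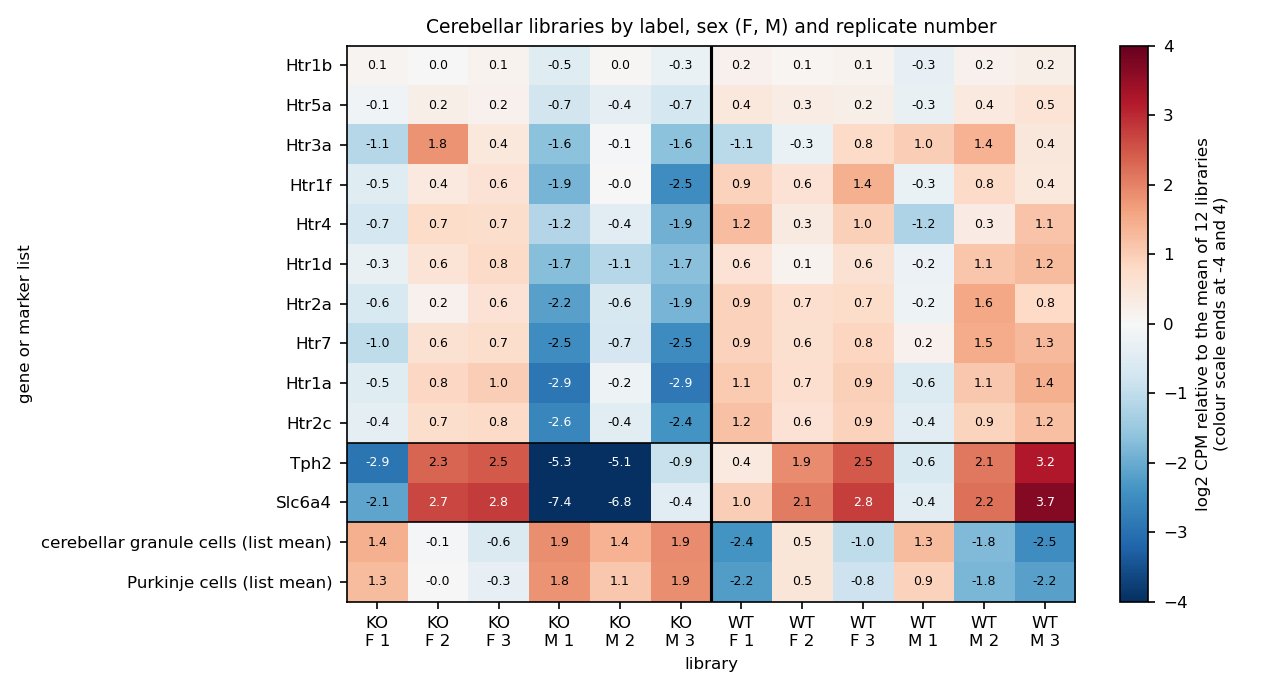
Heat map of the 12 cerebellar libraries (columns; KO left of WT, F female, M male, with the replicate number) for the 10 receptor genes, the raphe genes Tph2 and Slc6a4, and the mean of the granule and Purkinje marker lists (rows); colour and digits give log2 CPM relative to the mean of the 12. Male KO 1 and 3 are low for most receptors and high for granule markers, while Htr1b varies least across its row.

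Outside cerebellum the KO and WT libraries were closer, and edgeR called 0 of 10 members in each forebrain region. Called shares over all genes were 0.655% of 17402 in dorsal hippocampus, 0.24% of 17067 in prefrontal cortex and 0.0748% of 17388 in ventral hippocampus. At an unadjusted p under 0.05 the member counts were 1, 1 and 0 (2466, 2237 and 755 over all genes), and DESeq2 called 0 in each. No member's KO and WT ranges were apart in any of them, as were those of 1.3%, 0.668% and 0.259% of genes. The median log2 change of the members was -0.04, 0.05 and 0.12, against 0.01, 0.00 and 0.00 over all genes tested.

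In dorsal hippocampus the member with the smallest p was Htr1b, with 9.08, 13.0 and 14.7 CPM as lowest, median and highest in KO libraries and 8.14, 10.5 and 11.4 CPM in WT libraries (log2 change 0.33 ± 0.12, adjusted p = 0.25, edgeR). Htr4 had the largest difference there, 5.77 ± 1.86 CPM in KO and 7.68 ± 1.45 CPM in WT libraries (-0.42 ± 0.21, adjusted p = 0.398, edgeR). Its lowest library, male KO 1 with 2.77 CPM, is one of those with cerebellar RNA. With any library left out its log2 change stayed negative (-0.549 to -0.27). In prefrontal cortex Htr2a had 37.8, 44.6 and 53.4 CPM in KO libraries, against 45.8, 50.1 and 55.9 CPM in WT libraries (-0.16 ± 0.05, adjusted p = 0.212, edgeR). Its adjusted p spanned 0.106 to 0.901 over the alternatives tried. Htr2c, at 23.3 ± 10.6 CPM in KO and 17.8 ± 2.80 CPM in WT prefrontal cortex (0.35 ± 0.17, adjusted p = 0.387, edgeR), was highest in female KO 2 and 3 with 42.1 and 28.3 CPM, the libraries rich in striatal markers. Its log2 change was 0.00 (-0.00469) without them, in a fit with female KO 1 as the only female KO library. Without the filter on low counts prefrontal Htr2c was called (0.34, adjusted p = 0.00378). In ventral hippocampus every adjusted p was 1, and the single high value of Htr2c, 85.4 CPM in male KO 1, came with 1182 counts of Tph2. The part of neighbouring tissue in these forebrain values was not tested further.

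**Figure D4:**
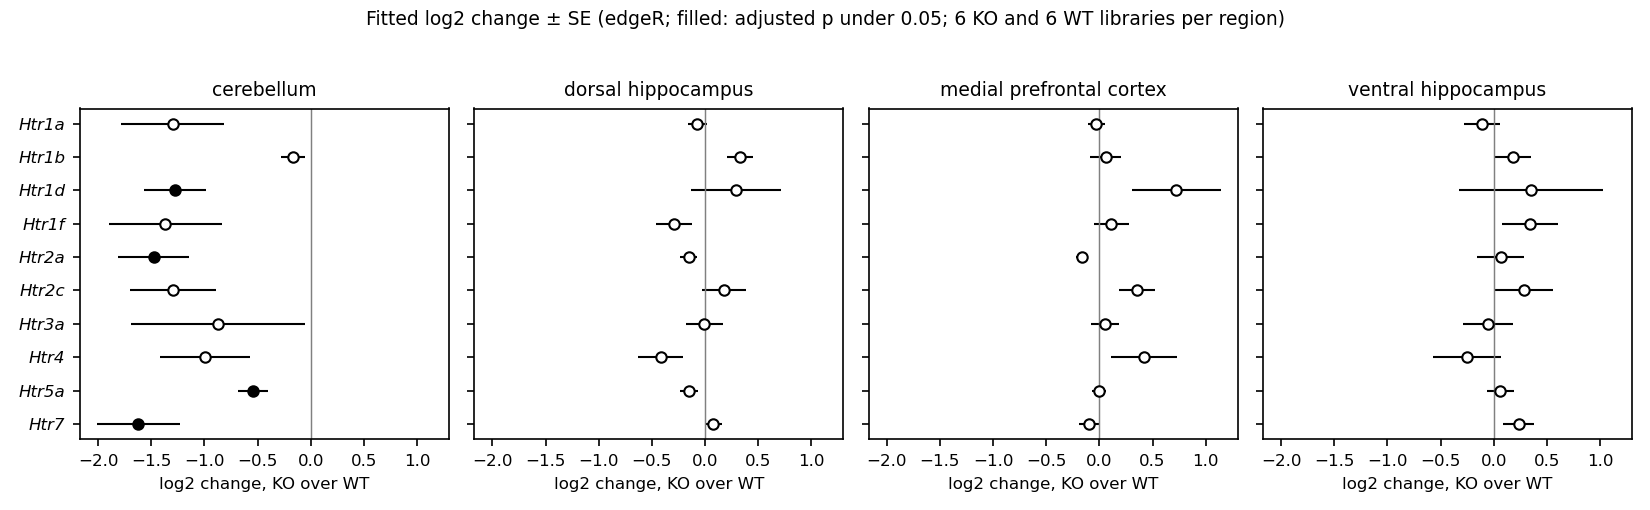
Fitted log2 change, KO over WT, with its SE for each receptor gene in each region (edgeR, 6 KO and 6 WT libraries per region); filled points have an adjusted p under 0.05. All 10 cerebellar points lie left of 0 and the 4 filled ones are Htr1d, Htr2a, Htr5a and Htr7, whereas forebrain points lie on both sides with none filled.

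Whether the KO against WT difference itself varied between regions was asked in 1 fit over all 48 libraries. It did for 5 of 10 members, where 7.79% of 19183 genes were called: Htr7 (adjusted p = 0.00323), Htr2a (0.00761), Htr2c (0.0314), Htr1f (0.0427) and Htr5a (0.046, edgeR F test of 3 contrasts, adjusted p). Set side by side, Htr7 changed by a log2 value of -1.62 in cerebellum, 0.08 in dorsal hippocampus, -0.10 in prefrontal cortex and 0.23 in ventral hippocampus. Htr2a changed by -1.48, -0.16, -0.16 and 0.06 in the same order, Htr2c by -1.29, 0.18, 0.35 and 0.28, Htr1f by -1.37, -0.29, 0.11 and 0.34, and Htr5a by -0.54, -0.15, 0.00 (-0.00452) and 0.06. Cerebellum set these calls: 0 members (and 0 genes) were called over the 3 forebrain regions alone. Leaving out all libraries numbered 1, 2 or 3 left 3, 1 and 0 members called. The fit without the 10 libraries apart has a single library in some groups, so it cannot decide whether the 5 calls hold.

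Differences by sex were tested next. In the difference of the KO against WT change between females and males, edgeR called 0 of 10 members in each region, where 0%, 0%, 1.61% and 0% of genes tested were called in cerebellum, dorsal hippocampus, prefrontal cortex and ventral hippocampus in that order. At an unadjusted p under 0.05 the member counts were 4, 0, 6 and 1 (2412, 2253, 3041 and 755 over all genes), and DESeq2 called 1, 0, 2 and 0. Prefrontal Htr2a came nearest (0.41 ± 0.11, female minus male log2 change, adjusted p = 0.0627). Its CPM in females were 46.9, 53.4 and 47.2 under the KO label and 50.9, 45.8 and 46.9 under the WT label. In males they were 42.2, 37.8 and 40.5 under the KO label, against 55.9, 49.3 and 54.0 under the WT label. The male ranges were apart and the female ones overlapped. With 3 libraries a side ranges can part by chance, and the share of all genes with parted male ranges was not counted. Prefrontal Htr1b followed (1.00 ± 0.30, adjusted p = 0.0925), with 15.5, 15.6 and 23.9 CPM in female KO and 13.2, 8.71 and 15.4 in female WT libraries, and 8.87, 8.92 and 11.6 CPM in male KO and 11.6, 12.2 and 16.9 in male WT libraries. Without prefrontal male KO 1 or female WT 1 Htr2a was called (adjusted p = 0.0308 and 0.0404), and without female KO 1 Htr2c was (0.0215). That last fit kept female KO 2 and 3, which stood apart for striatal markers (marker means 1.46 and 1.26), as the female KO libraries. They held the region's highest Htr2c, 42.1 and 28.3 CPM, and female KO 3 its highest Htr1b. The sex comparisons were not fitted without them, and the part of striatal tissue was not tested. Female against male, averaged over the labels, also called 0 members in each region by edgeR and by DESeq2, where 0.0393%, 0.0575%, 0.105% and 0.0345% of genes were called in the same order of regions. The counts at an unadjusted p under 0.05 were 7, 3, 1 and 3. Over all genes tested those counts were 3040 of 17825, 1356 of 17402, 1588 of 17067 and 3211 of 17388. In cerebellum all 10 members had a positive female minus male log2 difference (median 0.86, 0 called), and 9125 of 17825 genes had a positive one. All 6 raphe markers were positive too (median 1.45, 0 called, 1 with an unadjusted p under 0.05), whereas 11 of 12 granule markers and all 10 Purkinje markers were negative (medians -0.97 and -0.71, 0 called). The part of these other cells was not tested.

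Genes that work with these receptors were read beside them. Of the other receptor genes, Htr6 averaged 7.27 ± 0.84 CPM in prefrontal cortex and Htr5b 6.82 ± 3.32 CPM in dorsal hippocampus (SD, n = 12), whereas Htr2b never passed 10 counts and Htr3b never passed 4. Htr5b and Htr6 had negative cerebellar changes that missed the threshold (-1.51 ± 0.53 and -0.84 ± 0.30, adjusted p = 0.0787 and 0.0815, edgeR). In the list of 12 genes for serotonin synthesis, storage, uptake and breakdown, 11 were tested in cerebellum, 9 were lower under the KO label and 0 were called (8 with an unadjusted p under 0.05). Those with the smallest p were Slc18a2, the vesicular monoamine transporter (33.7 ± 40.1 CPM in KO and 73.8 ± 43.3 CPM in WT libraries, adjusted p = 0.0703), and Fev, a transcription factor of raphe neurons (2.65 ± 3.69 and 6.32 ± 4.87 CPM, adjusted p = 0.077). In dorsal hippocampus, prefrontal cortex and ventral hippocampus 0 of 10, 0 of 9 and 0 of 9 tested were called, and the unadjusted p was under 0.05 for 1, 0 and 0 of them.

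Of 26 genes for G proteins, effectors and partners of these receptors, 4 were called in cerebellum, all lower under the KO label (5.55% of all genes were called lower), and 13 had a negative and 13 a positive change. They were Rgs4, a brake on Gi and Gq signals (40.1 ± 18.6 CPM in KO and 73.6 ± 23.6 CPM in WT libraries; -0.97 ± 0.21, adjusted p = 0.0427), Gnas, the stimulatory alpha subunit (115 ± 43.7 and 176 ± 50.4 CPM; -0.66 ± 0.16, adjusted p = 0.0456), Adcy2 (-0.61 ± 0.15, adjusted p = 0.0467) and Adcy8 (-0.28 ± 0.07, adjusted p = 0.0476), which are adenylyl cyclases (edgeR). These 4 are among the 1405 cerebellar calls with an adjusted p between 0.04 and 0.05, and the 1422 calls over all genes became 7 to 6400 with 1 library left out, and 11, 6 and 13 with the granule covariate, with the raphe covariate and without the libraries apart. In dorsal hippocampus, prefrontal cortex and ventral hippocampus edgeR called 0 of 26; the unadjusted p was under 0.05 for 10, 4 and 0 of them. Nearest the threshold in dorsal hippocampus were Plcb4, a phospholipase C (116 ± 10.9 CPM in KO and 87.2 ± 12.3 CPM in WT libraries, adjusted p = 0.0647), and Kcnj6, a G protein-gated potassium channel subunit (23.2 ± 4.47 and 32.5 ± 4.94 CPM, adjusted p = 0.0684).

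Among 12381 named genes with enough reads, those most like a member over the 48 libraries were found by Pearson's r of log2 CPM. As the libraries share regions and tissue mixtures, r is a description only. For Htr2a they were Pcdh10 (r = 0.97), Prkar1b (0.968) and Chp1 (0.96), and for Htr3a Moxd1 (0.964), Rasl10a (0.96) and Rtn4rl2 (0.956). Htr1a was nearest to Slit1 (0.955), Tox3 and Pcdh19, Htr2c to Slc6a11 (0.938), Klhl13 and Tal1, and Htr1f to Cobl (0.931), Ephb6 and Kcnh7. Htr7 led with Epha10 (0.934), Htr1d with Erich3 (0.874), Htr4 with Nkain3 (0.87) and Htr1b with Nexn (0.808). Once the 16 group means were taken out, the nearest genes were others in most cases: Elavl2 for Htr2a (r = 0.93), Slit2 for Htr7 (0.931), Cobl for Htr1a (0.939), Baiap3 and Tac1 for Htr2c (0.926 and 0.912), Ptprn2 for Htr5a (0.893), Pcdh8 for Htr4 (0.888) and Ankrd26 for Htr1b (0.681).

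The files place the genes on mm39. Htr1a lies on chromosome 13 from 105580147 to 105584630, Htr1b on chromosome 9 from 81510344 to 81515881, Htr1d on chromosome 4 from 136150835 to 136171709 and Htr1f on chromosome 16 from 64745092 to 64926217. Htr2a lies on chromosome 14 from 74878280 to 74946934, Htr2c on chromosome X from 145745509 to 145980273, and Htr3a on chromosome 9 from 48810513 to 48822399. Htr4 lies on chromosome 18 from 62457275 to 62629648, Htr5a on chromosome 5 from 28047147 to 28060086 and Htr7 on chromosome 19 from 35936134 to 36034907. Each is annotated as protein coding and values are for the whole gene.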

How the data were processed

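RNA sequencing of polyadenylated RNA gave raw counts per gene for 48 libraries. The authors deposited these counts with gene length and mm39 coordinates. HISAT2 2.0.5, DESeq2 and mm39 are named per the submitters' processing notes; the counting program, its strand setting and the annotation release are not given in the sources used here. Totals ran from 14559295 to 25863414 counts per library, and at low counts this depth limits precision.

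Counts were tested per region over 12 libraries with edgeR 4.0.16 (limma 3.58.1, R 4.3.3): TMM scaling, filterByExpr (minimum count 10, total 15), group means for each sex and label, and the quasi-likelihood test, with an adjusted p (Benjamini-Hochberg over all genes tested) under 0.05 as a call. KO against WT averages the sexes. Region pairs and the variation of the KO against WT difference between regions come from 1 fit over 48 libraries. CPM values use TMM over the 48 libraries. Alternatives were RLE scaling, no filter, a stricter filter (1 CPM in 6 libraries), a replicate block, DESeq2 1.42.0, marker means as covariates, and libraries left out. The covariates for raphe, striatal and choroid plexus markers and the removal of the 10 libraries apart were chosen after seeing the data. Limits for those libraries were marker means of log2 CPM relative to the region below -1.5 (granule, cerebellum), above 1.5 (granule or raphe, hippocampus) or above 1 (striatal, prefrontal cortex).

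The receptor genes and gene lists were chosen with earlier results of these data known. Besides the members, the genes named from a list are those with the smallest p, and those most like a member are the 3 with the highest r among genes with a mean count of 50 or more. For Htr5a this result over the 48 libraries is not reported here. In simulated data with 200 changed genes, the cerebellar KO against WT comparison recovered 28.4%, 77.6% and 93.9% of 1.5-fold, 2-fold and 4-fold changes (17825 genes). Genes were drawn independently there, without the tissue mixtures that the real cerebellar libraries share. These shares therefore do not describe recovery in the real libraries. All 48 within-group pairs of libraries differed by more than sampling noise. All p-values rest on the spread between these libraries. Whether libraries of different regions share an animal is not stated. The main fits over regions treat them as independent, so their p-values do not allow for shared animals.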

Additional observations from a re-analysis of the deposited data

Results flagged for a closer look

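Of 80 groups of 6 libraries (each member, region and label), 6 held a library whose gap to its neighbour was a large share of the group's range by Dixon's criterion; chance gives about 1 in 20. In ventral hippocampus male KO 3 was the lowest for Htr1a (19.6 CPM, next 38.7) and for Htr5a (13.2 CPM, next 21.1), and this library held 5904 counts of Gabra6. In the same region male KO 1 was the highest for Htr2c (85.4 CPM, next 40.0) and held 1182 counts of Tph2. In cerebellum female KO 2 was the highest of its label for Htr3a (1.17 CPM, from 33 counts), and female KO 3 was next (0.37 CPM). Female KO 2 held 174 CPM of Tph2, against 191 CPM in female KO 3. Cerebellar male WT 1 was the lowest of its label for Htr1b (16.2 CPM, next 21.6). Prefrontal male WT 2 was the highest of its label for Htr7 (17.8 CPM, next 13.1). The part of other cells in these values was not tested.

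By edgeR's test over 48 libraries, KO against WT changes were not the same in all regions for Htr7 (adjusted p = 0.00323), Htr2a (0.00761), Htr2c (0.0314), Htr1f (0.0427) and Htr5a (0.046). These calls hung on few libraries: 0 to 3 members were called with all libraries of a replicate number left out.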

How the results depend on the processing

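Over the alternatives, 763 of 865 KO against WT fits of single members kept the direction and the side of the threshold, 51 lost a call, 14 gained one and 37 changed sign. Of 720 fits for region pairs 660 kept both, 27 lost a call, 17 gained one and 16 changed sign. Causes of these shifts were not tested. Fits without the libraries apart keep a single library in some groups, so calls lost there cannot be told apart from the loss of libraries. Depth limits Htr1d, Htr1f, Htr3a and Htr4 most, with 975, 1681, 2607 and 3863 counts over all libraries.

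In cerebellum, KO against WT called 0 members with the granule or the raphe covariate or without the libraries apart, 8 in the model of all 48 libraries, and 0 to 7 with a library left out. Over all genes it called 1422, against 3879 with DESeq2, 522 with the replicate block, 2011 without the filter, 6240 in the model of all 48 libraries, 11 and 6 with the granule and raphe covariates, 13 without the libraries apart, and 7 to 6400 with a library left out. Its sex difference called 1 member with DESeq2 and 4 in the model of all 48 libraries, and females against males 6 in that model. Without the filter, 1 member was called for females against males in dorsal hippocampus and in prefrontal cortex, 1 for KO against WT in prefrontal cortex (Htr2c), and 3 for the prefrontal sex difference, which called 2 with DESeq2 and 0 to 1 with a library left out. Females against males in ventral hippocampus called 0 to 1 (Htr1b, without male WT 3). Cerebellum against dorsal hippocampus called 6 in WT libraries alone. Dorsal against ventral hippocampus called 0 in KO libraries alone, 4 with only the 2 regions, 4 with DESeq2 and 0 to 2 with a replicate number left out. The variation between regions called 0 without cerebellum, 0 without the libraries apart, and 0 to 3 with a replicate number left out.

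The labels do not give the replicate numbers as pairing, and same-numbered libraries did not all deviate together. The main fits therefore treat libraries as independent, also between regions. Of 24 same-numbered pairs of labels 5 had r over 0.1 (range -0.597 to 0.188), against 12 of 48 with different numbers. Of 72 same-numbered pairs of regions 24 had r over 0.1 (range -0.38 to 0.454, median 0.0359), against 13 of 144 with different numbers (median -0.0209). Regions may thus share animals in part, which these values cannot decide. With the number as a replicate block within a region, cerebellar KO against WT called 3 members (Htr5a had an adjusted p of 0.0517, edgeR). The prefrontal sex difference called 1 (Htr1b, adjusted p = 0.0186, edgeR). Over all 48 libraries the block joined libraries of the same sex, label and number, and the variation between regions called 5 members. The block within a region turned the log2 change of Htr3a in dorsal hippocampus to 0.00372.

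Other log2 changes of KO against WT that changed sign were these. In cerebellum Htr1b became 0.045 with the granule covariate and 0.0404 without the libraries apart, and Htr4 0.216 with the covariate. Without the libraries apart, prefrontal Htr1b, Htr1f and Htr2c became -0.0609, -0.169 and -0.00469, and ventral hippocampal Htr1d, Htr2a and Htr2c -0.785, -0.0467 and -0.0528; Htr3a there became 0.0326 with the choroid plexus covariate. With a library left out, the ranges in dorsal hippocampus were -0.053 to 0.642 (Htr1d), -0.0195 to 0.347 (Htr2c) and -0.13 to 0.0651 (Htr3a). In prefrontal cortex they were -0.0777 to 0.042 (Htr1a), -0.0592 to 0.151 (Htr1b), -0.048 to 0.115 (Htr3a) and -0.0609 to 0.0305 (Htr5a). In ventral hippocampus they were -0.206 to 0.0217 (Htr1a), -0.436 to 0.775 (Htr1d), -0.126 to 0.229 (Htr2a), -0.0539 to 0.46 (Htr2c), -0.233 to 0.14 (Htr3a) and -0.468 to 0.101 (Htr4).

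Among region pairs, Htr2c for cerebellum against dorsal hippocampus became -0.108 in KO libraries alone. In WT libraries alone Htr7 became 0.342 against dorsal hippocampus, 0.744 against prefrontal cortex and 0.657 against ventral hippocampus, and Htr1a 0.0908 against prefrontal cortex. For dorsal against ventral hippocampus Htr1b became 0.0572 in KO libraries alone and 0.135 without the libraries apart, and Htr4 -0.0211 without them. For prefrontal cortex against ventral hippocampus Htr3a became -0.0241 in WT libraries alone and -0.0549 without the libraries apart. With a replicate number left out, Htr7 ran from -0.304 to 0.179 for cerebellum against prefrontal cortex. Dorsal against ventral hippocampus gave -0.144 to 0.075 for Htr1b, -0.336 to 1.01 for Htr1d and -0.00165 to 0.229 for Htr4, and prefrontal cortex against ventral hippocampus -0.0625 to 0.375 for Htr1b.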
